A study of Mus musculus with 6 samples.

Results

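Among the messenger RNAs that neutrophils are known for, the pair of alarmin genes S100a8 and S100a9 was higher in every GB2 tumor than in every PBS tumor, although neither passed the adjusted test in edgeR. The set comprised 10 genes of the 33965 in the deposited table, taken by symbol: S100a8, S100a9, Retnlg, Ly6g, Lcn2, Ngp, Camp, Ltf, Mpo and Elane. Of its 6 granule genes, all but Lcn2 were close to or below the limit of detection in both groups. The samples were 6 tumors labelled MC38, implanted subcutaneously in C57BL/6 animals: 3 had received PBS and 3 had received GB2. MC38 cells derive from a mouse carcinoma of the colon. GB2 is a prodrug in which MSA-2, an agonist of STING, is linked to artesunate, which the study uses as an inhibitor of TREM2. It was given into the vein, at 10 mg/kg in the MC38 model of the study, and the dose and time of the sequenced tumors are not given separately in the sources used here. The labels name no genetic change in the mice. The study states in general that its data come from 3 or more independent experiments. It does not say how the sequenced tumors of a group were divided among experiments, so p-values measure the spread between these tumors only.

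The tumor label was checked first, and the data went against it. Genes of pigment cells stood among the most abundant of the whole table in all 6 tumors. Tyrp1, an enzyme of melanin synthesis, had a median of 1504 FPKM (fragments scaled by transcript length and by library size) and ranked 16 of 33965 genes by mean FPKM. Pmel, which encodes the fibril protein of melanosomes, had a median of 1399 FPKM, and Dct, another melanin enzyme, one of 901 FPKM. The 9 pigment cell genes examined ranked between 16 and 2206, down to the ion channel gene Trpm1 with a median of 23.8 FPKM. The genes of tumor epithelium examined were near 0 instead. The medians of Krt8, Krt18, Krt19, Epcam, Cdh1 and Cldn4 lay between 0.0155 and 0.794 FPKM. Some keratinocyte genes were higher, such as Krt14 with 2.53 to 26.8 FPKM over the 6 tumors. Of 7 genes of colon epithelium in the table, Lgals4 had the highest median, 2.76 FPKM, and the intestinal transcription factor genes Cdx1 and Cdx2 were at 0 in 5 of the 6 tumors each. Between the groups, none of the 9 pigment cell genes passed an unadjusted p under 0.05 with 2-fold, and their summed level overlapped. The pigment cell and colon lists were drawn up after the values had been seen. The study also grew tumors of the melanoma line B16F10, and which line the sequenced tumors came from was not tested. They are called the tumors labelled MC38, or PBS and GB2 tumors, here.

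**Figure D1:**
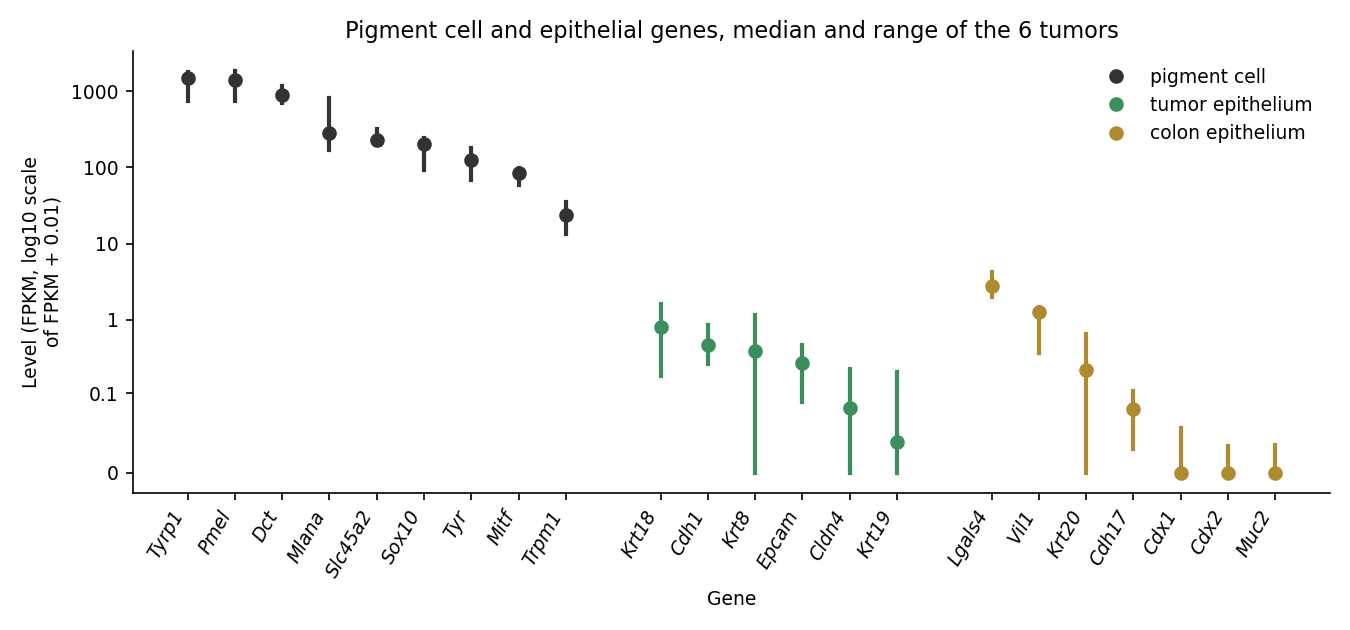
FPKM (vertical axis, log10 scale of FPKM + 0.01) of pigment cell, epithelial and colon epithelial genes; points are medians and lines the range of the 6 tumors labelled MC38. The pigment cell medians lie between 23.8 and 1504 FPKM, and no median of the epithelial and colon epithelial genes shown exceeds 2.76 FPKM.

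Neutrophils are short-lived phagocytes that mature in the bone marrow and enter tissue from blood. They make their granule proteins in sequence: azurophil granule genes such as Mpo and Elane are transcribed in promyelocytes, specific granule genes such as Ltf, Camp and Ngp in myelocytes, and gelatinase granule genes later still. A mature neutrophil in tissue therefore carries the proteins while it has little of the early granule messages, and continues to transcribe genes of surface receptors and of S100a8 and S100a9. The S100A8 and S100A9 proteins form calprotectin, a complex that binds calcium and zinc, fills the cytosol of neutrophils and, once released, acts as an alarmin on receptors such as TLR4. Monocytes and stressed keratinocytes express the same pair of genes.

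The 3 genes detected in every tumor were S100a8, S100a9 and Lcn2. Their promoters are shown because they are the members whose levels could be followed in all tumors. The sequences are the 250 bases before the transcription start in RefSeq, build GRCm38.p6. Capitals mark matches to the letters TTGCNNAA, which C/EBP factors bind, to AGGAAG, a core of ETS factors such as PU.1, both searched on either strand, and to TATAAA on the strand of the gene. The S100a8 promoter is at chr3:90668821-90669070 on the plus strand, the S100a9 promoter at chr3:90695722-90695971 on the minus strand and the Lcn2 promoter at chr2:32387740-32387989 on the minus strand.
S100a8: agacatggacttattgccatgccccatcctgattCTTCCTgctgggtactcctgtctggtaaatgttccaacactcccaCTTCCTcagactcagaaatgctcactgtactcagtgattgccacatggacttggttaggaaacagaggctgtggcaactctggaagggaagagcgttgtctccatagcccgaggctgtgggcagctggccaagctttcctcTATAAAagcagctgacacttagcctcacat
S100a9: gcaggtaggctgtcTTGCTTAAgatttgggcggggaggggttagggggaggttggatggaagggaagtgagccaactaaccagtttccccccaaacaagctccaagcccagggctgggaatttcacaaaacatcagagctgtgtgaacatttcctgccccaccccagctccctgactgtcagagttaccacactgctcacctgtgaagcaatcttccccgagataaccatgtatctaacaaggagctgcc
Lcn2: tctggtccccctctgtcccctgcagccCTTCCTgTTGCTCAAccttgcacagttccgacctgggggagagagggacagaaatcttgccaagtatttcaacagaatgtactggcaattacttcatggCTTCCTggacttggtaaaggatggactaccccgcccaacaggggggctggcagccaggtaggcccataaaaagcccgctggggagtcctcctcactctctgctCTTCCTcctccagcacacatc

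The promoters of the alarmin pair had none of the searched motifs in common. S100a8 held 2 AGGAAG matches on the reverse strand, 216 to 211 and 171 to 166 bases before the start, and a TATAAA match 30 to 25 bases before it. S100a9 held 1 TTGCNNAA match, 236 to 229 bases before the start. Lcn2 held 1 TTGCNNAA match 216 to 209 bases before the start and 3 AGGAAG matches. Of 32851 RefSeq promoters, 9.6% held TTGCNNAA, 29.5% AGGAAG and 7.6% TATAAA in a window of the same length. The AP-1 letters TGANTCA, present in 6.7% of promoters, were in no promoter of the 10 genes. All 10 genes had a promoter entry.

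The libraries held 64764405 to 69878156 counts in PBS and 81210553 to 83690056 in GB2 tumors, so that every GB2 library was larger than every PBS library. About 4 counts stand for 1 read pair. A gene with fewer than 3 read pairs in a library was taken as below the detection limit, which corresponds to 0.141 to 0.203 CPM (counts scaled to library size and by TMM). Intervals and limits cover counting error only. In the edgeR quasi-likelihood test, 0% of 19602 tested genes were called at an adjusted p under 0.05 and 2-fold, the smallest adjusted p was 0.166 and 1360 genes had an unadjusted p under 0.05. DESeq2 called 380. The share of tested genes with an unadjusted p under 0.05 and at least 2-fold higher in GB2 was 3.74%, and 0.918% were lower by the same rule. Every GB2 tumor was above every PBS tumor in 8.61% of tested genes.

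Of the 10 genes, 5 had enough counts to be tested, namely S100a8, S100a9, Retnlg, Lcn2 and Ltf. None of them was called. By unadjusted p and fold, 2 were higher in GB2, S100a8 and S100a9, and the same 2 had groups that did not overlap. Ly6g, Mpo and Elane were below the detection limit in every tumor.

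S100a8 (ENSMUSG00000056054) encodes the light chain of calprotectin. Its level was 0.425, 0.900 and 0.579 FPKM in PBS tumors 1 to 3 and 2.60, 2.11 and 2.00 FPKM in GB2 tumors 1 to 3. The lowest GB2 tumor was above the highest PBS tumor. Over each group of 3 tumors, 24.8 read pairs (95% Poisson interval 15.98 to 36.61) stood against 101 (82.0 to 122). The mean was 0.488 ± 0.157 CPM in PBS and 1.60 ± 0.215 CPM in GB2 tumors (SD, n = 3 each). On the log2 scale GB2 tumors were higher by 1.71 (standard error 0.39, edgeR adjusted p 0.276). DESeq2 gave an adjusted p of 0.015 for the same counts, so the call depended on the tool.

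S100a9 (ENSMUSG00000056071) encodes the heavy chain. It had 2.65, 4.48 and 1.70 FPKM in PBS tumors 1 to 3 against 9.14, 6.44 and 7.56 FPKM in GB2 tumors 1 to 3. The groups again did not overlap. The mean was 1.66 ± 0.761 CPM in PBS and 4.11 ± 0.648 CPM in GB2 tumors (SD, n = 3 each). GB2 tumors were higher by 1.31 on the log2 scale (standard error 0.40, edgeR adjusted p 0.482), and leaving out 1 tumor at a time gave 1.02 to 1.70. Within the PBS group, tumor 2 was highest for both genes. The ratio of S100a9 to S100a8, in FPKM, was 6.22, 4.98 and 2.93 in PBS tumors and 3.51, 3.06 and 3.78 in GB2 tumors, and the groups overlapped. Both genes lie on chromosome 3, at 90576285 to 90577342 and at 90599939 to 90603028 in the positions of the table, 22597 bases apart and on opposite strands. The table does not name the build of its positions, and they differ from those of GRCm38 for most genes.

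**Figure D2:**
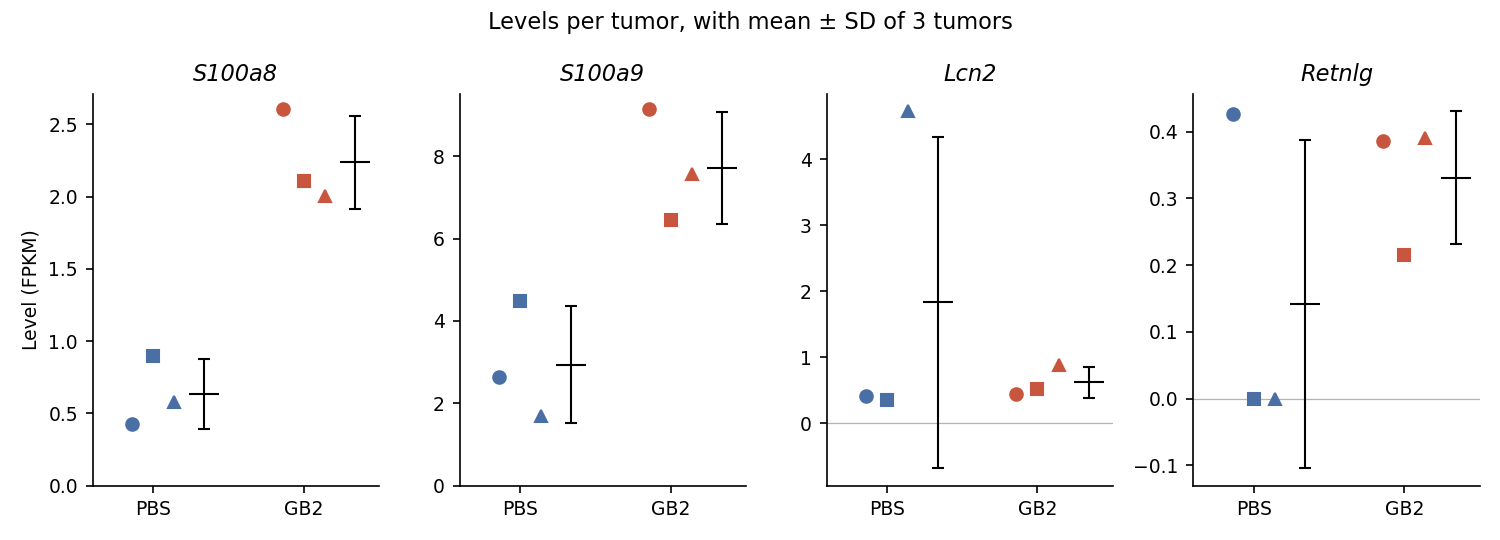
FPKM (vertical axis) of S100a8, S100a9, Lcn2 and Retnlg in PBS tumors (blue) and GB2 tumors (red); circles, squares and triangles are tumors 1, 2 and 3, and black bars give the mean ± SD of 3 tumors. S100a8 and S100a9 do not overlap between groups, PBS tumor 3 stands alone at 4.72 FPKM for Lcn2, and Retnlg is at 0 in 2 PBS tumors.

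Bulk RNA cannot tell apart more cells of a type from more RNA per cell. In abundance, mean FPKM put S100a9 above 77.8% and S100a8 above 66.0% of the genes in the table.

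Of the remaining S100 genes, which encode calcium-binding proteins of many cell types, 9 of 10 in the table were tested. S100a4, made by fibroblasts and myeloid cells, was higher by unadjusted p and fold, at 2.49, 4.48 and 3.52 FPKM in PBS against 7.94, 7.83 and 7.26 FPKM in GB2 tumors (log2 fold change 1.07, edgeR adjusted p 0.368). The median log2 fold change of the 9 was -0.14, beside -0.02 for all tested genes. S100a11, S100a1 and S100b were the most abundant, and their groups overlapped. S100a1 ranged from 48.8 to 132 FPKM over the 6 tumors and S100b, a gene of glial and pigment cells, from 49.3 to 97.5 FPKM.

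**Figure D3:**
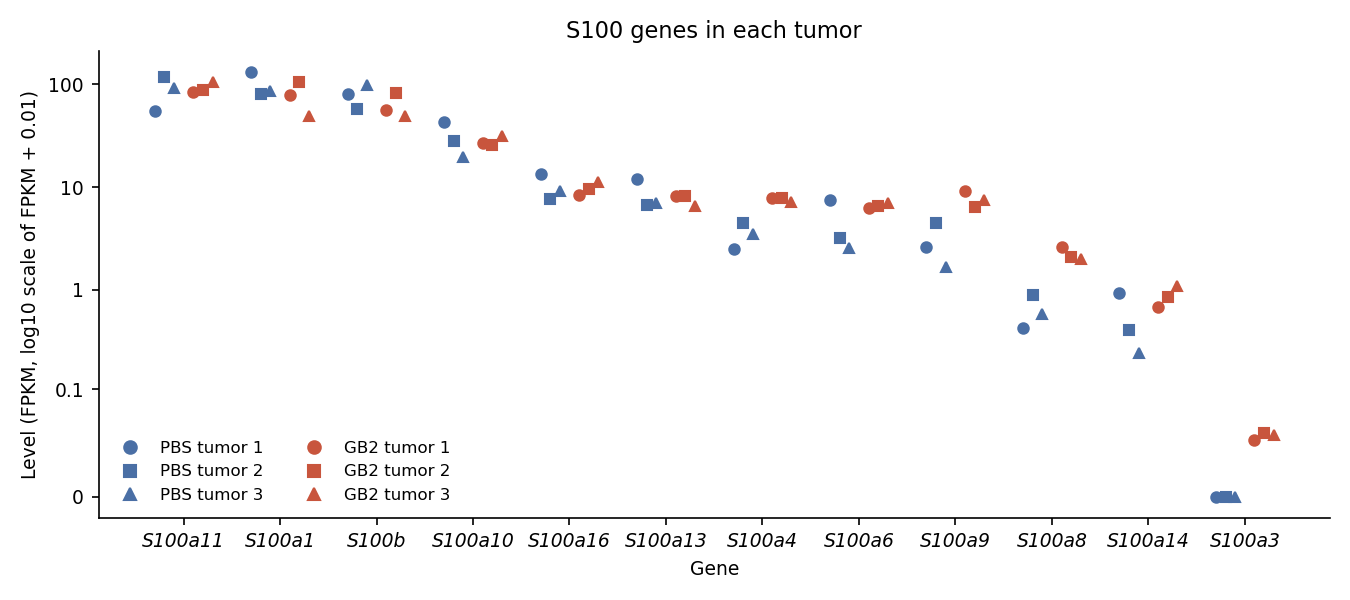
FPKM (vertical axis, log10 scale of FPKM + 0.01) of S100a8, S100a9 and 10 other S100 genes in PBS tumors (blue) and GB2 tumors (red), ordered by mean. S100a11, S100a1 and S100b lie near 100 FPKM in both groups; S100a4, S100a8 and S100a9 are the genes above 0.1 FPKM whose groups do not overlap.

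Lcn2 encodes lipocalin 2, a protein of specific granules that binds bacterial siderophores and is also made by stressed epithelium. Its level was 0.414, 0.348 and 4.72 FPKM in PBS tumors 1 to 3 and 0.446, 0.519 and 0.884 FPKM in GB2 tumors 1 to 3. One PBS tumor decided the comparison: PBS tumor 3 held 903 counts, whereas the other 5 tumors held 69 to 202. The fitted log2 fold change, -1.58 (standard error 0.95, edgeR adjusted p 0.759), became 0.56 without PBS tumor 3. DESeq2 gave -1.57 and no p-value, as it does by default for a gene with an extreme count in a single sample. The same tumor was highest for Serpinb1a, an inhibitor of neutrophil proteases, with 25.7 CPM against 2.82 to 5.90 CPM in the other 5, and it was the only tumor with Camp counts. For S100a9 it was the lowest of the 6 tumors, with 0.919 CPM. Keratinocyte markers summed to 26.6 to 121 CPM in PBS and 87.7 to 155 CPM in GB2 tumors, and the median log2 fold change of the 9 tested was 0.53. The lowest of these sums, 26.6 CPM, was that of PBS tumor 3. The part of keratinocytes in the alarmin or Lcn2 levels was not tested.

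Retnlg encodes a secreted protein of the resistin family made by neutrophils. It had 18, 0 and 0 counts in PBS tumors 1 to 3 and 20, 12 and 20 in GB2 tumors 1 to 3. PBS tumor 1 lay within the range of the GB2 tumors. The fitted log2 fold change of 1.05 was smaller than its standard error of 1.48 (edgeR adjusted p 0.877). Retnlg passed the filter on low counts through the GB2 tumors and PBS tumor 1, as the other PBS tumors were at 0. Without PBS tumor 1, both remaining PBS tumors are at 0 and the fitted value, 7.03, has no meaning as a size. Ly6g, a surface protein that defines mouse neutrophils in flow cytometry, had 0 counts in all 6 tumors, for which the upper bound of the 95% Poisson interval is 3.69 read pairs over the 3 tumors of a group. It belongs to a family of near-identical Ly6 genes, so its count is uncertain.

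Ltf encodes lactoferrin, the iron-binding protein of specific granules. It had 22, 0 and 10 counts in PBS and 0, 0 and 32 in GB2 tumors, and the standard error of 1.85 exceeded the log2 fold change of -0.43 (edgeR adjusted p 0.954). Ngp, neutrophilic granule protein, had 0, 0 and 4 counts in PBS and 8, 12 and 4 in GB2 tumors, in all 1 read pair against 6. Camp, which encodes the antimicrobial peptide cathelicidin, had 12 counts in PBS tumor 3 and 0 in the other 5 tumors. These values are at or near the detection limit, and no difference was detectable at this depth.

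Mpo encodes myeloperoxidase and Elane neutrophil elastase, the main azurophil granule enzymes. Mpo had 0 counts in all 6 tumors, and Elane had 3 counts in PBS tumor 1, less than 1 read pair, and 0 elsewhere. All 4 azurophil granule genes in the table were below the limit in every tumor. Among markers of myeloid progenitors, which share these genes, 3 could be tested, and none of the 3 was an azurophil granule gene. Of these, 1 was higher in GB2 by unadjusted p and fold, the surface protein gene Cd34 (log2 fold change 1.11, edgeR adjusted p 0.270). Kit, with 0.98, fell short of 2-fold, and Myb had -0.12. Endothelial markers were higher as well, and which cells carried the Cd34 message was not tested.

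Other genes known from neutrophils were then grouped by role. Of the specific granule genes, Ltf and Lcn2 included, 6 were tested and 1 was higher, Chil3, a chitinase-like protein that macrophages also make, with a log2 fold change of 2.89 (edgeR adjusted p 0.529) and groups that overlapped. The median over the 6 was 0.13. Of the 5 gelatinase granule and secretory vesicle genes tested, 4 were higher by unadjusted p and fold, the same 4 had groups that did not overlap, and the median log2 fold change was 2.32. The gene that did not pass, Fpr1, had 0, 20 and 0 counts in PBS and 52, 16 and 63 in GB2 tumors. Macrophage markers had a median log2 fold change of 1.87, and the part of macrophages in the levels of these genes was not tested. Mmp9, the gelatinase itself, had 3.31, 1.32 and 2.14 CPM in PBS against 9.48, 12.4 and 11.8 CPM in GB2 tumors (log2 fold change 2.32, edgeR adjusted p 0.186). Itgam, the integrin subunit CD11b, had a log2 fold change of 2.43.

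Among receptor and surface genes of neutrophils, 14 were tested, 9 were higher by unadjusted p and fold, and none was lower. Their median log2 fold change was 1.54. Csf3r, the receptor for the neutrophil growth factor G-CSF, had 0.456, 1.09 and 0.580 CPM in PBS against 4.05, 3.16 and 5.37 CPM in GB2 tumors. This was a log2 fold change of 2.56 (edgeR adjusted p 0.190). Cxcr2, the receptor that draws neutrophils along CXC chemokines, was far less abundant, with 0.118, 0.241 and 0.141 CPM in PBS against 0.619, 0.745 and 1.02 CPM in GB2 tumors. Its counts in PBS tumors 1 and 3, 7 and 10, were below the detection limit. Clec4e, a receptor for damaged cells, had a log2 fold change of 2.42. The groups of all 3 receptors did not overlap. Csf3r, Clec4e and Itgam are also expressed by monocytes and macrophages.

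Of 7 tested genes for chemoattractants and growth factors of neutrophils, 3 were higher, Cxcl5, Cxcl3 and Cxcl2, all ligands of CXCR2. Cxcl5 had 1.54, 1.19 and 1.09 CPM in PBS against 4.39, 5.01 and 4.99 CPM in GB2 tumors, or 1.91 on the log2 scale (edgeR adjusted p 0.186). Cxcl3 and Cxcl2 each had a log2 fold change of 1.99, and Cxcl3 was below the detection limit in PBS tumor 1, with 11 counts. Cxcl1, a ligand of the same receptor, had 0.34 and overlapping groups.

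Of 9 genes of mature blood neutrophils in the table, 5 could be tested. Among these, including G0s2 and Asprv1, none was higher or lower by unadjusted p and fold, and their median log2 fold change was 0.19. Of 4 tested transcription factor genes of granulocyte formation, Spi1, which encodes PU.1 and also serves macrophages, was higher with a log2 fold change of 1.52, and the C/EBP genes Cebpa, Cebpb and Cebpd lay between -0.06 and 0.52. Among 10 receptors for the secreted proteins of the set, Cd14, a co-receptor of TLR4, was higher with a log2 fold change of 2.24 and Cd36 with 1.20. Tlr4 itself had 0.41 with overlapping groups. Bsg, which encodes a receptor for S100A9, had 775.9 to 999.7 CPM in GB2 and 1099 to 2007 CPM in PBS tumors, with groups that did not overlap and a log2 fold change of -0.70, short of 2-fold.

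**Figure D4:**
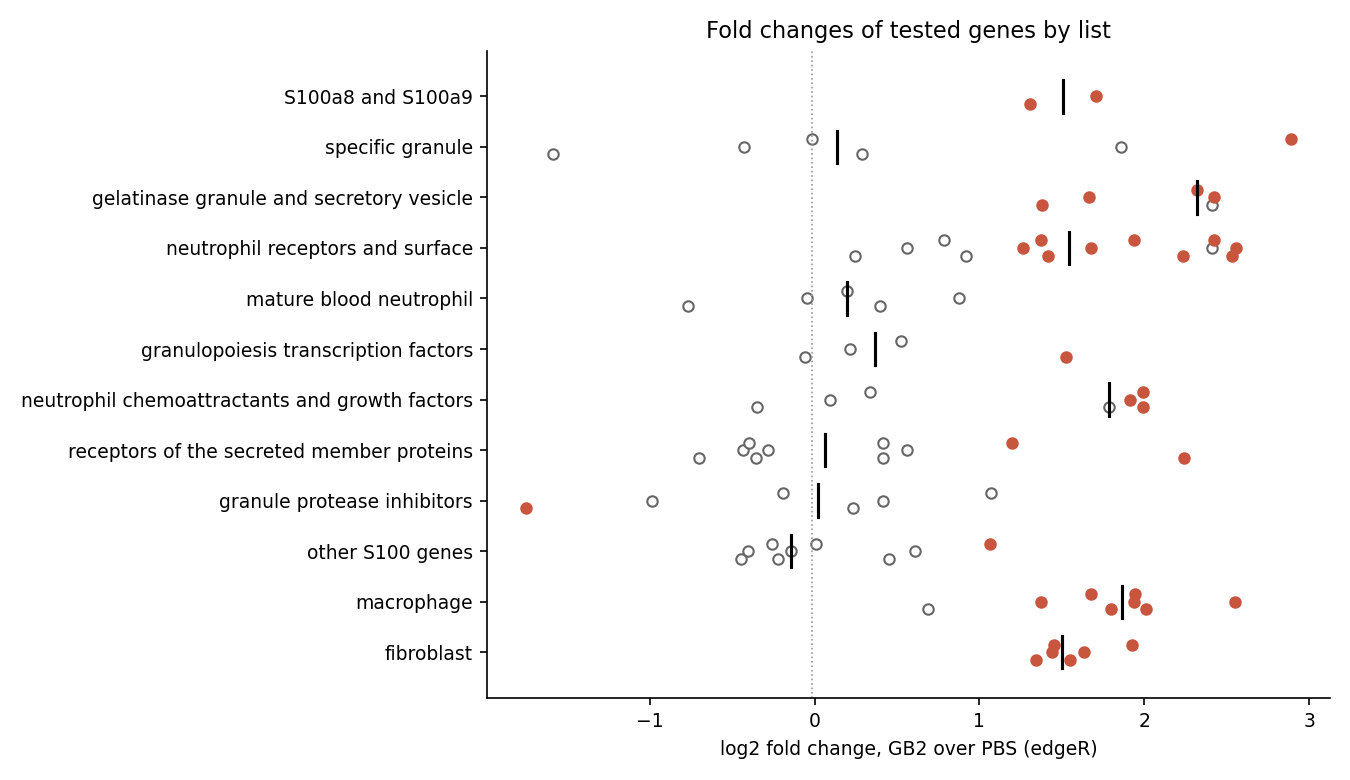
Log2 fold change of GB2 over PBS tumors (horizontal axis, edgeR) for each tested gene of 12 lists; filled points have an unadjusted p under 0.05 and at least 2-fold, black bars are medians and the dotted line is the median of all tested genes, -0.02. Gelatinase granule, receptor and chemoattractant genes have medians of 1.54 to 2.32, and the medians of the specific granule and mature blood neutrophil lists are 0.13 and 0.19, with single genes of the former from -1.58 to 2.89.

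Markers of several other cell types were higher in GB2 tumors as well, whereas erythroid markers went the other way. All 8 macrophage markers had groups that did not overlap, 7 were higher by unadjusted p and fold, and their summed level was 33.4 to 53.1 CPM in PBS and 113 to 206 CPM in GB2 tumors. Monocyte markers summed to 3.78 to 8.87 CPM in PBS and 12.7 to 30.6 CPM in GB2 tumors, with 3 of 6 higher. Fibroblast markers were higher for 6 of 6 genes and summed to 274 to 507.5 CPM in PBS and 947 to 1322 CPM in GB2 tumors. Endothelial markers were higher for 4 of 6. Mast cell markers summed to 4.07 to 6.38 CPM in PBS and 10.58 to 13.99 CPM in GB2 tumors, with 2 of 4 tested higher, Tpsb2 and Mcpt4. Tpsb2 had 0, 0 and 12 counts in PBS tumors 1 to 3 and 33, 66 and 93 in GB2 tumors. It thus passed the filter on low counts through the GB2 tumors, and the groups of Mcpt4 overlapped. Kit, which was also on the myeloid progenitor list, made up most of these sums, with 3.465 to 6.066 CPM in PBS and 8.953 to 11.15 CPM in GB2 tumors. Which cells carried Kit, pigment cells included, was not tested, so the sums cannot be read as a measure of mast cells. Skeletal muscle markers summed to 91.5 to 156 CPM in PBS and 168.5 to 215.6 CPM in GB2 tumors, and none of 6 passed the unadjusted p and fold. Erythroid markers were lower for 4 of 6 and summed to 507 to 7472 CPM in PBS and 94.7 to 1271 CPM in GB2 tumors. T cell, NK cell and B cell markers had none of 7, 4 and 3 tested genes past the same rule. The part of any of these in the levels of S100a8, S100a9 and the other neutrophil genes was not tested. Of the neutrophil markers, Csf3r, Cxcr2, Mmp9 and Il1r2 had groups that did not overlap, with log2 fold changes of 2.56, 2.24, 2.32 and 1.265. Retnlg had overlapping groups, and Stfa2l1 had 21 counts in GB2 tumor 2 and 0 elsewhere. The surface marker Ly6g, whose count is uncertain, was below the limit in every tumor, as were the azurophil granule genes Mpo and Elane.

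The genes whose pattern over the 6 tumors was most like that of each alarmin gene were sought by the root mean square difference of mean-centred log2 CPM, as a description. For S100a8 the nearest were Cd93, a surface protein of endothelial and myeloid cells, at 0.139, and the collagen gene Col6a3 at 0.173. For S100a9 they were the collagen gene Col14a1 at 0.155, Sel1l3 at 0.157 and Anxa3, an annexin abundant in neutrophils, at 0.160. The alarmin genes were not each other's nearest, though each ranked high for the other among the 19602 tested genes. S100a9 ranked 114 for S100a8 and S100a8 ranked 130 for S100a9, with a difference of 0.346. For Lcn2 the nearest was Kdelr3, at 0.414, which was likewise highest in PBS tumor 3.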

How the data were processed

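RNA was measured in bulk by poly-A selected, stranded, paired-end sequencing of 6 tumors, 3 PBS and 3 GB2, grouped by the labels. The authors deposited, for 33965 genes, estimated counts (whole numbers, not scaled between tumors) and FPKM values, which are scaled by transcript length and library size. The submitters' processing notes name cutadapt 1.9, HISAT2 2.2.1, StringTie 2.1.6, DESeq2, edgeR and the build mm10. The positions in the table equal those of the GRCm38 annotation for 595 of 31999 shared gene IDs (1.86%), so their build is uncertain and they were not used to read sequence.

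Counts were fitted in edgeR 4.0.16 (R 4.3.3) over all genes with filterByExpr (minimum count 10), TMM scaling, glmQLFit and glmQLFTest, with Benjamini-Hochberg adjustment over 19602 genes. The limits on adjusted p (0.05) and fold (2) are those of the study's methods, which name no test. Standard errors come from the test statistic. The self-test used simulated counts. DESeq2 1.42.0 and limma 3.58.1 on FPKM were alternatives, with other scalings, filters, a tumor number block and each tumor left out. Sequences are from RefSeq.

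The 10 genes and the gene lists were chosen with earlier results of these data known, and the pigment cell and colon lists after their values were seen. All 10 genes are given. From each list, up to 4 genes with the smallest p in a direction could be named, and for each tested member the 5 genes most like it in pattern. Individual genes outside that rule (Cxcl1, Fpr1, Tlr4, Il1r2, Stfa2l1, the C/EBP genes, G0s2, Asprv1, S100a1, S100a11, S100b, and the epithelial keratin and junction genes) were named after their values were seen.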

Additional observations from a re-analysis of the deposited data

How the results depend on the processing

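S100a8 and S100a9 were higher in GB2 tumors under every alternative run, and their groups did not overlap in any alternative in which overlap was counted. The log2 fold change of S100a8 ran from 0.99, with limma on log2(FPKM + 1), to 2.00, without PBS tumor 2. Genes called over the whole table numbered 0 under edgeR and limma in every setting and 380 under DESeq2, where S100a8 was the member called, and the cause was not tested. With limma on log2(FPKM + 1), 1 gene of the set passed the unadjusted p and fold in place of 2, because a pseudocount of 1 shrinks the fold of low genes. Without PBS tumor 1, Retnlg passed as well, and with single tumors left out the number that passed lay between 2 and 3 and the number with groups apart also between 2 and 3. The direction of Lcn2 turned without PBS tumor 3, and over single tumors left out its log2 fold change ran from -2.07 to 0.56. That of Ltf turned without PBS tumor 1, GB2 tumor 1 or GB2 tumor 2, with a range of -6.66 to 0.83, whose lower end, without GB2 tumor 3, has no meaning as a size because both remaining GB2 tumors are at 0. Tumor numbers did not pair the tumors: deviations of same-numbered tumors correlated at 0.0313, 0.154 and -0.245. With the number as a replicate block, the values were 1.74 for S100a8, 1.40 for S100a9, 2.88 for Retnlg and -0.64 for Lcn2, and no gene was called. Ltf could not be fitted with limma on FPKM, nor Retnlg and Ltf with counts divided by 4, which left them under the filter. The biological coefficient of variation of 40.5% and the detection limit of 3 read pairs bound what could be seen for the granule genes.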
